A study of Mus musculus with 5 samples.

Results

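Fzd8 and Tcf7 were followed here in a time course of chromatin accessibility, as 2 genes of the Wnt pathway out of 8034 named genes. They were taken from the table by gene name, with every site annotated to them: 2 sites for Fzd8 and 5 for Tcf7, or 7 of 34714 sites in all. Accessibility was measured by ATAC-seq, in which a transposase inserts adapters into open chromatin, in the C17.2 line of established mouse neural progenitors, of CD1 x C57BL/6 background. The 0 h control came from cells in DMEM/F12 with fetal bovine serum, and the libraries of 0.5, 1, 1.5 and 2 h followed a change to Knockout DMEM with GlutaMAX and N2 supplement, which induces neural differentiation. Every group is 1 library of the same line, so no difference between times has a replicate check, and no test was made. Medium and time changed together, and no library of cells kept in serum was used here, so their effects cannot be told apart. The members were chosen by their values at 0 h and 2 h, as genes whose highest site, the one with the largest mean over the 5 libraries, was uncovered at the start and covered at the end. That contrast is therefore given as a description.

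Wnt proteins are secreted signals that bind Frizzled receptors together with the co-receptors Lrp5 and Lrp6. Binding halts the destruction complex, built on Axin and Apc, which otherwise marks beta-catenin for breakdown, and beta-catenin then joins DNA-binding factors of the TCF/LEF family at target genes. Fzd8 encodes a Frizzled receptor that is expressed in the developing forebrain. Tcf7 encodes TCF-1, a TCF/LEF factor best known from T cell development that is also itself a Wnt target. In neural progenitors the pathway is known for roles in proliferation, regional patterning and, later, neuronal differentiation.

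The deposited value of a site is a whole number, from 0 to 10 over the table, taken to count how many entries of a library's BED file lie over it. It is not a read count, the read depth behind it is unknown, and 0 means only that no entry was listed there. A site with 1 or more entries is called covered. A site open in more of the cells and a site more open in each cell cannot be told apart in such bulk libraries.

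The Tcf7 sites lie in and around 2 alternative transcript starts for which RefSeq gives sequence, both inside the annotated gene, which spans 52246527 to 52283383 on the minus strand of chromosome 11 (GRCm38). The start at position 52283014, 369 bp inside the gene, has 3 of the sites in its window of 250 bases before to 50 bases after the start, and all 3 were covered in the 2 h library alone. The start at position 52282595, 788 bp inside the gene, has in its window the site that was covered in the 0 h library alone. Stretches just before both starts are shown because they hold sites with opposite orders in time, and capitals mark the bases of the deposited sites. The stretch chr11:52283015-52283179 begins at the first ATG of its window and reads from there as 55 codons without a stop. The other is chr11:52282596-52282745, and both are written 5′ to 3′ on the minus strand. Both lie within the annotated gene, and so within the transcribed part of longer Tcf7 transcripts, and are not the promoter at its 5′ end.
Tcf7 before the start at 369 bp: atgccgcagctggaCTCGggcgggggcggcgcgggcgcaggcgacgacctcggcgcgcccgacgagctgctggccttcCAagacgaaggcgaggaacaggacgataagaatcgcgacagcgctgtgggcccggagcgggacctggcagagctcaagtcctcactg
Tcf7 before the start at 788 bp: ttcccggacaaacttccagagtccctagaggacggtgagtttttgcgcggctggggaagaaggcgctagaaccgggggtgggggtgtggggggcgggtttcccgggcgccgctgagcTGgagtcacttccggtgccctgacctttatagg
The window of the start at 369 bp was rich in CpG dinucleotides, with 45 of them in 300 bases, a G+C content of 76.3% and an observed-to-expected CpG ratio of 1.03. The window of the start at 788 bp held 17 CpG dinucleotides, with a G+C content of 64.3% and a ratio of 0.55. Over 32851 RefSeq promoter windows of this length the medians were 7 CpG dinucleotides, 52.7% G+C and a ratio of 0.38, and 97.1% of windows had a lower G+C content than the Tcf7 window at 369 bp, against 80.4% for that at 788 bp. The binding sequence of the TCF/LEF factors themselves, searched as CTTTGAA or CTTTGAT on both strands, was in neither window, and 8.65% of all windows held a match. An ETS sequence, CCGGAAGT on either strand, was in the window at 788 bp and not in that at 369 bp, and 3.89% of all windows held it. The AP-1 sequence, TGACTCA or TGAGTCA, which are reverse complements of each other, was in neither (5.20% of all windows). These matches describe letters in the windows and are not evidence of binding.

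Fzd8 was uncovered in the first 3 libraries and among the highest genes of the table in the last 2. Its upstream site (chromosome 18, 9213688 to 9213691, GRCm38) lies 834 bp downstream of the annotated 5′ end, inside a gene of 3346 bp, and held 0, 0 and 0 entries in the libraries of 0, 0.5 and 1 h and 7 in those of 1.5 and 2 h. Its downstream site (9214048 to 9214054), 1195 bp from the 5′ end, held 0 in all 5 libraries. The gene thus stood at 7 in both late libraries at a short site, and at 0 in every library at a site that starts 360 bp further on. On the log2(entries + 1) scale, which understates differences of low values, the upstream site was 3 higher at both late times than in the control.

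A value of 7 was rare at any time. At 2 h, 20 of 8034 genes (0.249%) held 7 or more entries at their highest site, and at 1.5 h 45 did (0.56%), where the median covered gene held 2 and 3. Genes with 0 entries at 0 h and 7 or more later numbered 7 at 1.5 h (0.0871% of 8034) and 3 at 2 h (0.0373%). The sharp step along the gene was counted over pairs of sites, which came from few genes. Each site with 7 or more entries at 2 h was paired with every other site of its gene starting 300 to 400 bp away. This gave 107 pairings, and in 2 of them (1.87%) the other site held 0. These pairings came from 9 genes, of which 2, Fzd8 among them, had such a step. At 1.5 h it was 3 of 222 pairings (1.35%), from 2 of 14 genes. A pair with both sites at 7 or more was counted from each side, and a pair with a 0 from its higher site only. The percentages can therefore understate the share among pairs. Pairs within a gene are not independent, and with so few genes the step cannot be called uncommon by gene. The range of distances was set around the 360 bp between the Fzd8 sites.

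**Figure D1:**
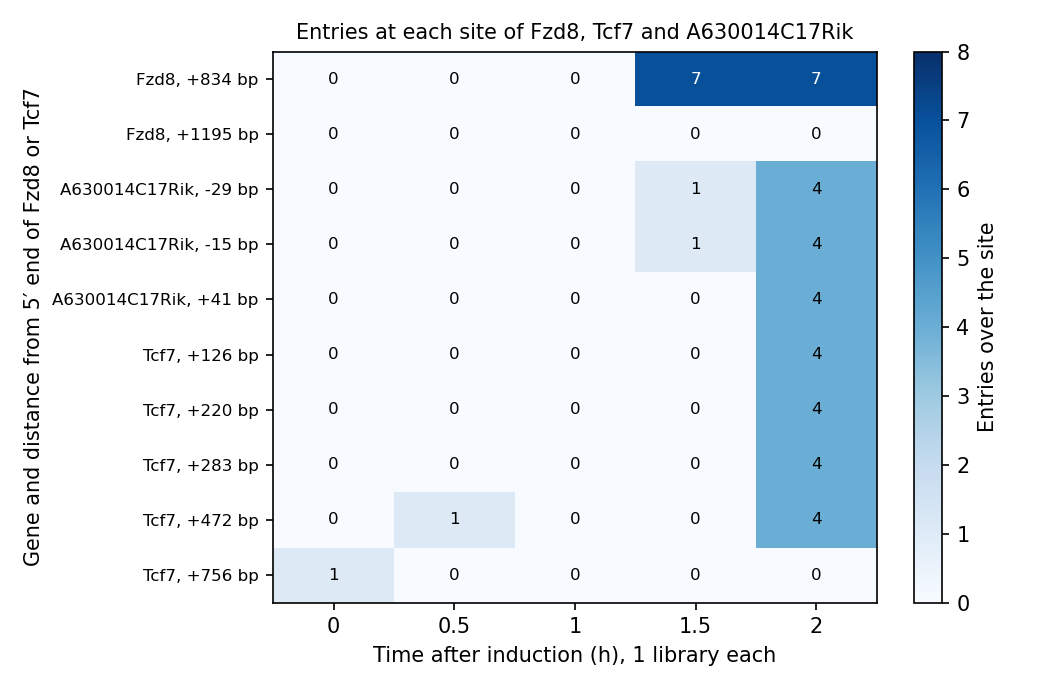
Entries over each site of Fzd8, Tcf7 and A630014C17Rik, a gene at the 5′ end of Tcf7, in the 5 libraries. Rows give the gene and the distance of the site from the 5′ end of Fzd8 or, for the other rows, of Tcf7 (bp, positive downstream), columns the time after induction (h), and numbers and colour the entries. Fzd8 held 7 entries at 1.5 and 2 h at its upstream site, and the Tcf7 sites between 126 and 472 bp held 4 at 2 h.

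Tcf7 differed from Fzd8 in time, as its sites were first covered together in the 2 h library. The site nearest its 5′ end (chromosome 11, 52283256 to 52283258, 126 bp downstream) held 0 entries at 0, 0.5, 1 and 1.5 h and 4 at 2 h. The sites 220 bp (52283162 to 52283165) and 283 bp (52283100 to 52283101) downstream held the same values. The site 472 bp downstream (52282909 to 52282913) held 0, 1, 0, 0 and 4 entries in order of time. That entry at 0.5 h made it the highest site of the gene by the mean over the libraries. The most downstream site (52282627 to 52282628, 756 bp from the 5′ end) went the other way, with 1 entry in the control and 0 after induction. Counted over its 5 sites, Tcf7 was therefore covered at 1, 1, 0, 0 and 4 of them in order of time, and the statement that the gene was uncovered at 0 h holds for its highest site and not for all of them. At that highest site, Tcf7 was 2.32 higher at 2 h than at 0 h on the log2(entries + 1) scale.

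The entries at 2 h formed a run of equal values that went past the 5′ end of Tcf7. The gene A630014C17Rik, on the plus strand and so opposite to Tcf7, has 3 sites at 41 bp inside Tcf7 and at 15 and 29 bp upstream of its 5′ end. All 3 held 4 entries at 2 h, as the Tcf7 sites did. The run covered 7 of the 8 sites at this end over 505 bp (52282909 to 52283413), and ended 281 bp short of the site that was covered at 0 h. The A630014C17Rik sites upstream of Tcf7 also held 1 entry at 1.5 h (52283398 to 52283399 and 52283412 to 52283413). Single entries thus lay at 3 different places of the region at 0, 0.5 and 1.5 h, and the value of 4 was reached at 2 h alone. The 7 sites lie close together with equal values at 2 h, and are counted here as a single region and not as 7 observations.

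**Figure D2:**
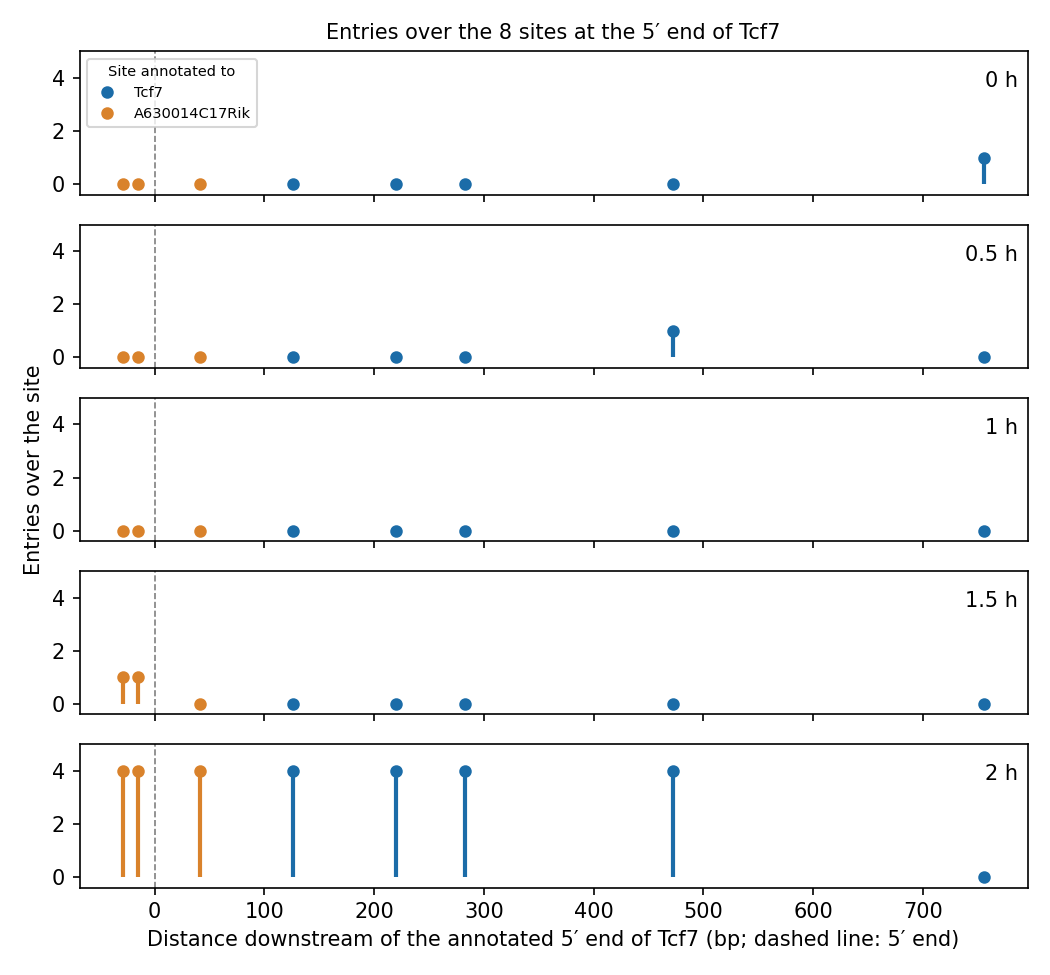
Entries over the 8 sites at the 5′ end of Tcf7 in each library, against the distance downstream of the annotated 5′ end (bp). Points are sites, coloured by the gene they are annotated to. At 2 h, 7 of 8 sites held 4 entries, and in the other libraries no site held more than 1.

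How often such orders occurred in the table was counted over all genes and sites. The order of Fzd8, covered at 1.5 and 2 h and uncovered before, was shared by 121 of 8034 genes (1.51%), Fzd8 included. In these 121 genes the highest site held 1 to 7 entries at each of the late times, with a median of 2, and Fzd8 was the only one at 7 at 1.5 h, as at 2 h. The order of the highest Tcf7 site, covered at 0.5 and 2 h alone, was shared by 9 genes (0.112%), and 45 genes (0.56%) were covered at 2 h alone. Among all 34714 sites, 543 (1.56%) were covered at 2 h alone, as 3 sites of Tcf7 were, and 48 (0.138%) at 0 h alone, as its most downstream one was. The order of the remaining Tcf7 site, covered at 0.5 and 2 h, was that of 0.193% of sites, and the order of the upstream Fzd8 site that of 5.66%. Of 2187 genes with no entry in the control, 530 had gained coverage by 2 h (24.2%), the condition by which both members were chosen, and 88 of 8034 genes (1.1%) went from 0 entries to 4 or more. All 7 sites of the members are listed on the strand opposite to their gene, as were 48.8% of all named sites. The sources used here do not say what the listed strand stands for.

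Apart from the A630014C17Rik sites described above, the surroundings of the members had other values. No other listed site lay within 100 kb of Fzd8, and the nearest, 235694 bp away and annotated to the cyclin gene Ccny, held 4, 2, 4, 1 and 2 entries at 0, 0.5, 1, 1.5 and 2 h. The first site of Vdac1, which encodes a channel of the outer mitochondrial membrane, lies 77721 bp from the nearest Tcf7 site, and the gene held 4, 4, 3, 3 and 3 entries at each of its 3 sites. On the other side Skp1a, a subunit of the SCF ubiquitin ligases, lies 50586 bp away and held 3, 3, 1, 3 and 3 at both of its sites. Vdac1 and Skp1a were both covered in all 5 libraries, and neither had its highest value at 2 h alone.

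The libraries themselves differed in how much of the table they covered. Over all sites the share covered was 47.6, 58.7, 51.2, 66.9 and 65.7% in order of time, and the total of entries at 1.5 h was 1.55 times and at 2 h 1.40 times that at 0 h. The libraries in which Fzd8 was covered were thus the ones that covered most sites. Tcf7 was covered at 4 of its 5 sites at 2 h, but at 0 of them at 1.5 h, in the library that covered most. The part of library coverage in the values of both genes was not tested. Of 14 listed genes of neural progenitors, 8 had a site: Sox9 held 4 entries in every library and Hes1 1, the intermediate filament gene Nes held 2 at 1.5 h and 0 elsewhere, and Pax6 and Msi1 held 0 throughout. Of the others, the adhesion gene Cdh2 held 3, 7, 5, 7 and 5 entries in order of time. Of 11 T cell genes, listed because Tcf7 is a factor of that lineage, Bcl11b alone had sites, and all 5 of them held 0 in every library.

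Among the Frizzled receptor genes, all 10 of which had sites, Fzd8 held the lowest value possible up to 1 h and the highest value of the family at 1.5 and 2 h. Fzd5 held 5, 3, 4, 4 and 2 entries at 0, 0.5, 1, 1.5 and 2 h and was the highest of the family at 0 h. Fzd4 held 2, 3, 3, 3 and 3, and Fzd1 held 2 in each library. These genes were covered at every time, with values that moved by 3 entries at most. Fzd3, a receptor of axon guidance, held 1, 2, 1, 2 and 3, and of its 14 sites 2 were covered in the control, 12 in the 1.5 h and 11 in the 2 h library. Of all named sites, 47.9, 67.6 and 66.3% were covered in these libraries. Fzd9 held 2, 3, 1, 2 and 2. Fzd2, with a single site, held 2, 2, 1, 3 and 0. Of the libraries in which Fzd8 held 7, it was thus at its own highest value at 1.5 h and uncovered at 2 h. Fzd7 held 1 entry at 1.5 h and 0 elsewhere, and Fzd6 and Fzd10 held 0 in all libraries. At 2 h the order was thus Fzd8 at 7, Fzd3 and Fzd4 at 3, Fzd1, Fzd5 and Fzd9 at 2, and the other 4 at 0. With 1 library a time and no known depth, neighbours in this order cannot be told apart.

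The co-receptor gene Lrp6 held 1, 3, 2, 2 and 3 entries, and of its 17 sites 6 were covered in the control and all 17 in the 2 h library, whereas Lrp5 held 0 at its 12 sites throughout. Ryk, an alternative Wnt receptor, held 2 entries at 0, 0.5 and 1 h and 4 at 1.5 and 2 h, with 5 of 11 sites covered at 0 h and 11 at both late times. Of all named sites, 47.9% were covered at 0 h and 66.3% at 2 h. The sites of Lrp6 lie close together, as do those of Ryk, and are not separate observations. Ror1, a receptor tyrosine kinase that binds Wnt5a, held 4, 3, 2, 2 and 2, and Ror2 and Ptk7 held 0 throughout. Without Fzd8, 4 of the 15 measured receptor and co-receptor genes had gained entries by 2 h, 3 had lost entries and 8 stood where they had been. Over all 8034 genes, 25.7% held more and 22.9% fewer entries than in the control.

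In the TCF/LEF family, Tcf7 was the only member whose highest value fell at 2 h alone. Lef1, a close relative of Tcf7, held 7, 3, 7, 7 and 5 entries in order of time, and all 3 of its sites were covered in every library. Tcf7l2 held 2 in each library. Tcf7l1, which acts mainly as a repressor, held 2 at 0.5 h and 0 elsewhere at its single site. At 0 h the family therefore stood at 7 for Lef1, 2 for Tcf7l2 and 0 for the others, and at 2 h at 5, 2, 0 for Tcf7l1 and 4 for Tcf7. Ctnnb1, which encodes beta-catenin, held 1, 2, 1, 2 and 2 entries. Of the 11 measured genes of beta-catenin and nuclear effectors other than Tcf7, 4 had more entries in the 2 h library than in the control, 3 had fewer and 4 the same number. The shares with more and fewer were 36.4% and 27.3%, beside 25.7% and 22.9% of all genes. Among the 11 genes, Pygo1, a co-activator of beta-catenin, held 1, 0, 1, 3 and 3, and the Groucho co-repressor gene Tle1 3, 5, 3, 4 and 5.

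**Figure D3:**
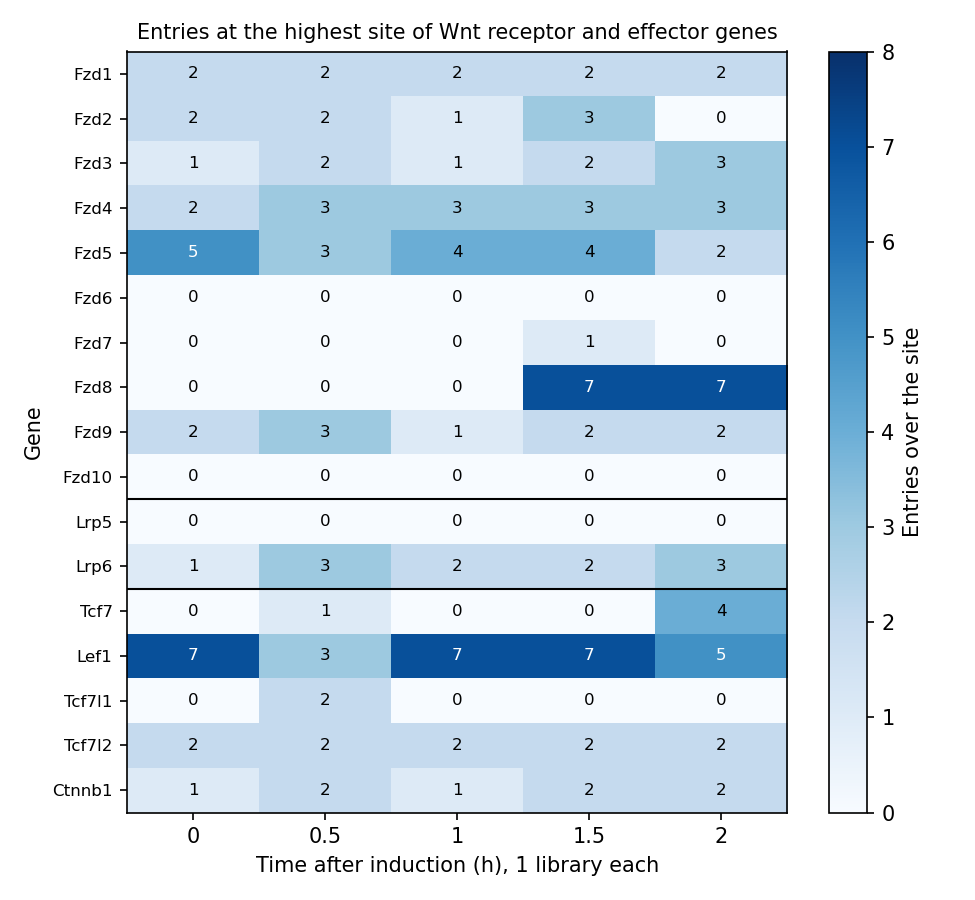
Entries at the highest site of the Frizzled genes, the co-receptor genes Lrp5 and Lrp6, the TCF/LEF genes and Ctnnb1 (rows) in the 5 libraries (columns, h after induction). Numbers and colour give the entries. Fzd8 changes from 0 to 7 between 1 and 1.5 h, Tcf7 from 0 to 4 between 1.5 and 2 h, and Lef1 holds 3 to 7 throughout.

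Among the Wnt ligand genes, 11 of the 16 measured (68.8%) held 0 in all libraries, Wnt1 and Wnt3a among them, beside 19.2% of all 8034 genes. Wnt7b, a ligand of the developing brain, held 0 entries at 0, 0.5 and 1 h and 2 at 1.5 and 2 h, the same order as Fzd8 at a lower level. Wnt4 held 2 entries at 2 h and 0 elsewhere, the order of the Tcf7 sites near its 5′ end. Wnt5a, a ligand of the branch that does not use beta-catenin, held 6, 4, 1, 5 and 3. Porcn, which attaches the lipid that Wnt proteins need, held 4 at 0 h and 2 at every later time. By 2 h, 3 genes of this group stood above their control value and 2 below it (18.8% and 12.5%, beside 25.7% and 22.9% of all genes).

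Among regulators of the pathway, further genes had the late orders. Notum, an enzyme that removes the lipid from Wnt proteins and is a Wnt target, held 0, 0, 0, 3 and 1 entries. Tnks encodes tankyrase, which marks Axin for breakdown and so favours signalling, and held 0, 0, 0, 3 and 5. Csnk1e, a casein kinase that acts on Dishevelled, held 3 at 2 h and 0 elsewhere, at a site 13795 bp inside the gene. Axin1 held 1 entry at 1.5 h and 0 elsewhere. Some other genes of Dishevelled and the destruction complex had fewer entries late. Dvl1, a Dishevelled adaptor, held 3, 3, 1, 1 and 1, and the casein kinase gene Csnk1a1 4, 3, 2, 2 and 1. Gsk3a, the kinase of the destruction complex, held 3 in each library, and its paralogue Gsk3b 5, 4, 4, 6 and 5. Of the 17 measured genes of Dishevelled and the destruction complex, 5 stood above their control value at 2 h and 6 below it. These are 29.4% and 35.3%, beside 25.7% and 22.9% of all genes.

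The remaining groups gave smaller numbers. Of 7 secreted and surface inhibitors, 2 were above their control value at 2 h and 0 below it (28.6% and 0%, beside 25.7% and 22.9% of all genes). Of 6 genes of the R-spondin axis it was 1 and 1 (16.7% each), with Lgr4, an R-spondin receptor, at 1 in each library. Of 9 planar polarity genes it was also 1 and 1 (11.1% each), with Celsr3 and Prickle2 at 1 in each library. Of 16 measured target genes other than Tcf7, 6 were above and 2 below their control value at 1.5 h, and 5 and 3 at 2 h. Those are 37.5% and 12.5% at 1.5 h (beside 31.3% and 17.9% of all genes) and 31.2% and 18.8% at 2 h (beside 25.7% and 22.9%). Axin2, the most widely used target gene, held 4, 3, 2, 3 and 3 entries, Myc 3, 2, 2, 3 and 3, and Fgf9 3, 3, 4, 3 and 4. Neurog1, a proneural factor, held 0, 2, 0, 1 and 1, and Jun, a subunit of AP-1, 0, 6, 0, 5 and 0. Neither Axin2 nor Myc had more entries in any later library than at 0 h.

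Taking the 90 measured genes of the 8 lists without Fzd8 and Tcf7, 22 held more entries in the 2 h library than in the control, 17 held fewer and 51 the same number, and 30 (33.3%, beside 19.2% of all genes) were at 0 in all libraries. The counts at 2 h are 24.4% more and 18.9% fewer, beside 25.7% and 22.9% of all genes, and the median log2 ratio was 0 for the list and 0 for all genes. At 1.5 h 23 held more and 15 fewer (25.6% and 16.7%, beside 31.3% and 17.9%), at 1 h 8 and 19 (8.89% and 21.1%, beside 20.6% and 22%), and at 0.5 h 15 and 18 (16.7% and 20%, beside 28.1% and 15.6%). All of these comparisons share the 0 h library. On the log2(entries + 1) scale, 9 of the 90 genes were higher by 1 or more at 2 h and 4 were lower by as much. Among all genes these were 9.53% and 3.49%. Such a difference is called 2-fold here, and 2 against 4 entries, as in Ryk, falls short of it. Of 41 list genes with no entry in the control, 6 had gained coverage by 2 h (14.6%, beside 24.2% over all genes). The order of Fzd8 was found in 3 of the 90 genes (3.33%, beside 1.51% of all genes), namely Notum, Tnks and Wnt7b. The order of the highest Tcf7 site was found in 0 of the 90, beside 0.112% of all genes. Coverage at 2 h alone, as at the Tcf7 sites near its 5′ end, was found in 2 (2.22%, beside 0.56%), Csnk1e and Wnt4. The order of Fzd8 and coverage at 2 h alone were thus found in few genes of the pathway, at shares above those of the table. A larger share of its genes than of the table was at 0 throughout.

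Counted by site, the Wnt genes were covered less than the table in every library. Of their 522 sites, 30.7, 44.4, 35.6, 54 and 53.1% were covered in order of time, beside 47.9, 59.2, 51.7, 67.6 and 66.3% of the 33952 named sites. Both series were low at 0 and 1 h and high at 1.5 and 2 h. Of the 93 sites of receptor genes other than Fzd8, 33.3% were covered in the control and 62.4% in the 2 h library, and of the 121 sites of ligand genes 12.4% and 23.1%.

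**Figure D4:**
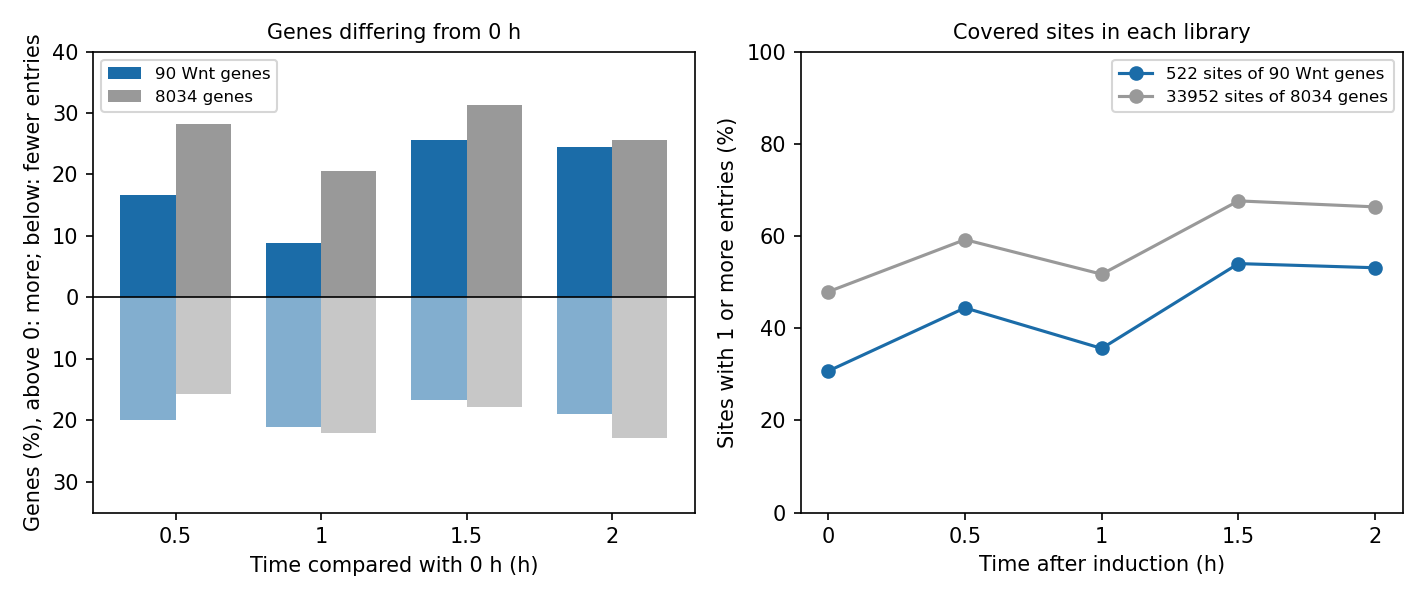
Left, the share of the 90 Wnt genes (blue) and of all 8034 genes (grey) with more (above 0) or fewer (below 0, paler) entries than at 0 h, at each later time. Right, the share of sites with 1 or more entries in each library, for the 522 sites of the Wnt genes and the 33952 named sites. At 2 h the shares with more entries are 24.4% and 25.7%, and the share of covered sites follows the same course over time in both.

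The genes most like each member were found as those with the smallest sum of absolute differences of the 5 values from it, over the 5 libraries. Nearest to Fzd8 were Kdm7a, a histone demethylase gene with 0, 3, 0, 7 and 6 entries, Gm49041, annotated next to it with 2, 1, 0, 7 and 6, and the SMAD repressor gene Skil with 0, 1, 0, 7 and 4, each at a sum of 4. Dyrk2, a protein kinase gene with 0, 1, 1, 6 and 5, and Mxra7 with 0, 0, 0, 5 and 4 followed at 5, as the first in order of symbol of the 6 genes at that sum. No gene of the table came closer to Fzd8 than 4. Nearest to Tcf7, beside the overlapping A630014C17Rik, were 5 genes at a sum of 2, taken in order of symbol from the 9 genes at that sum, A630014C17Rik included. Adgrb1, an adhesion receptor gene, held 0, 1, 0, 0 and 2 entries, and the kinase gene Cdc42bpa 0, 1, 0, 1 and 3. Csnk1e, named above, held 0, 0, 0, 0 and 3, the xylosyltransferase gene Gxylt2 0, 1, 0, 1 and 3, and the microRNA gene Mir203 0, 2, 0, 0 and 3. Among genes outside the Wnt lists, Notch1, a receptor of progenitor maintenance, was also at 2, with 0, 1, 0, 1 and 3.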

How the data were processed

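ATAC-seq was run on C17.2 cells at 5 times with 1 library each, and the analysis started from the deposited table of sites. Per the submitters' processing notes, Bowtie2, MACS2 and deepTools were used with the mouse build GRCm38 (mm10). The sources used here give no versions, settings, read shift, duplicate handling or origin of the site list. The deposited values are whole numbers treated as a score, read as entries of the BED file named, per the file headers, by each column. They were used without scaling for library size. Each gene was represented by the site whose mean over all 5 libraries was largest. Log2 ratios used a pseudocount of 1, and 2-fold means a ratio of 1 or more in size on that scale. Distances are from site centres to 5′ ends in the RefSeq gene table of GRCm38.p6, which also gave promoter sequences. No replicate exists, so no test was run. Wnt lists (8) and markers were written by hand, and members, lists and alternatives were chosen with earlier results of these data known. Genes named were the members, genes within 100 kb, Frizzled and TCF/LEF genes, genes of the Wnt lists that differed at least 2-fold from 0 h at 1.5 or 2 h, up to 3 with equal values a group, and the 5 most alike; other genes named were chosen after their values were seen. The counting was tested on simulated data. Python 3.11.15, pandas 2.3.3, numpy 2.4.6 and matplotlib 3.10.9 were used.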

Additional observations from a re-analysis of the deposited data

How the results depend on the processing

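No paired analysis was possible because each time has 1 library. Averaging all sites of a gene gave Fzd8 a log2 ratio of 2.17 at 1.5 h and at 2 h, and Tcf7 1.81 at 2 h and -0.26 at 1.5 h, where its highest site gave 0. With a pseudocount of 0.5 the ratios were 3.91 for Fzd8 at both times and 3.17 for Tcf7 at 2 h. Among the 90 Wnt genes, site means gave 32 with more and 12 with fewer entries at 2 h, beside 22 and 17 by the highest site. The share over all genes was not counted for site means. A 2-fold limit left 9 with more and 4 with fewer. A filter on the median gene mean left 9 with more and 13 with fewer, which turned their order. Against the 1 h library, chosen after seeing the data, 8 held fewer entries at 2 h and 25 more. For this filter and this baseline, too, the share over all genes was not counted, so these counts cannot be set beside the table. The order of Fzd8 was found in 249 genes by site means. There a gene counted as covered where the mean over its sites was 1 or more, a criterion other than that of the 121 genes. That of Tcf7 was found in 65 genes at the site nearest the 5′ end, in 80 by site means and in 73 where 2 entries were required. Under each of these 3 settings Tcf7 itself is covered at 2 h alone, so that these counts are of another order than the 9 genes covered at 0.5 and 2 h. Of 32 alternatives over 8 results, 17 kept the value or lay within 1.5 times the count. The unknown read depth limits every value.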
